A study of Mus musculus with 25 samples.

Results

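Voltage-gated sodium and calcium channels are built from pore-forming subunits and their auxiliary partners, and the genes that encode them were followed here in ribosome-bound RNA of mouse spinal cord cholinergic neurons. The members were all gene symbols of the pattern *Scn* with a digit and an a or b, *Cacna1* with a letter, and *Cacna2d*, *Cacnb* or *Cacng* with a digit, where at least 10 counts were summed over the 24 immunoprecipitated (IP) libraries. All 40 symbols that matched passed this minimum, out of 21738 genes that passed it and 50559 genes in the deposited table. They comprised 10 sodium α genes, 4 sodium β genes, 10 calcium α1 genes, 4 calcium α2δ genes, 4 calcium β genes and 8 calcium γ genes.

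Spinal cord was taken from male C57BL/6J mice that were 6 months of age and kept in a light-dark cycle, either at ZT8 (8 h after lights on) or at ZT20, in the dark period. Every mouse carried *ChAT-Cre*, which drives Cre in cholinergic neurons, and 1 *RiboTag* fx/+ allele, so that an HA tag was placed on the ribosomes of Cre-expressing cells. Mice called *ChAT-BKO* were in addition homozygous for floxed *Bmal1* (*Bmal1 fx/fx*), a clock gene that is then lost in those cells. Controls, labelled wild-type, carried the other alleles but no floxed *Bmal1*. There were 6 libraries in each of the 4 groups, each from 1 spinal cord, plus 1 Input library of whole spinal cord RNA pooled over both genotypes. ChAT is made by motor neurons but also by other cholinergic neurons, and the counts are per gene, so neither neuron subtypes nor splice forms were separated. In bulk RNA, fewer cells of a type and less RNA per cell cannot be told apart.

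A sodium channel consists of a large α subunit, which forms the voltage-gated pore and carries the upstroke of the action potential, and of small β subunits that change its gating and anchor it at the membrane. A calcium channel has an α1 subunit as its pore, an intracellular β subunit and an extracellular α2δ subunit, both of which promote its delivery to the membrane. The γ genes are named after a subunit of the muscle calcium channel, but most neuronal γ proteins are auxiliary subunits of AMPA-type glutamate receptors. In motor neurons, sodium channels set firing at the axon initial segment and nodes of Ranvier, and calcium channels trigger transmitter release at the neuromuscular junction.

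Because *Bmal1* encodes a transcription factor that binds E-boxes, promoters of the members were searched for clock-related motifs. RefSeq promoters on GRCm38.p6, from 250 bases before to 50 bases after the start, were at hand for 30 of the 40 members, giving 41 promoters. The E-box CACGTG, searched on both strands, was in 0 of the 41, against 7.15% of all 32851 promoters. The D-box TTANGTAA was in 1 of the 41, against 2.32% of all promoters, and the letters AGGTCA, the core of the element bound by ROR and REV-ERB receptors, were in 4, against 16.3% of all promoters. The windows that hold these letters are given because they were the only matches among the members, in lower case with the motif in capitals on the strand of the gene. TGACCT is AGGTCA read on the other strand. A match here describes the letters only.
*Scn1a* D-box, chr2:66440821-66440850 (- strand): ctgatgcttcaTTATGTAAgtctgtctagg
*Scn1a* AGGTCA, chr2:66440806-66440835 (- strand): gtaagtctgtctAGGTCAagtgtaggagac
*Scn8a* AGGTCA, chr15:100936088-100936117 (+ strand): ggaccattacaaAGGTCAcccaagccactc
*Cacng8* AGGTCA, chr7:3393906-3393935 (+ strand): gggactggattaTGACCTcttagtatatgg
*Cacng8* AGGTCA, chr7:3394051-3394080 (+ strand): atggcttcactcTGACCTtcgcctctgcag
*Cacna1f* AGGTCA, chrX:7607059-7607088 (+ strand): ttccccgccccgTGACCTtaatctctctaa

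The IP libraries held between 4.04 and 31.7 M (mega) counts and the Input 7.40 M. Counts were scaled to CPM on library sizes adjusted by TMM factors. Levels of different genes are compared only as CPM per kb of the gene's merged exons. *Bmal1*, listed as *Arntl*, ranged from 6.22 to 10.9 CPM in the controls and from 1.35 to 3.30 CPM in *ChAT-BKO* libraries, without overlap. All 7 cholinergic markers lay above the Input, with a median log2 ratio of IP to Input of 2.77. None of the markers of oligodendrocytes, their precursors, astrocytes, microglia or vascular cells did, although their RNA remained detectable. The median ratios of these lists ran from -3.88 to -3.07. Markers of other neurons were less reduced: 0 of 5 excitatory markers lay above the Input (median -2.28) and 1 of 5 inhibitory markers did (median -1.26). What part of the channel RNA came from other neurons was not tested.

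**Figure D1:**
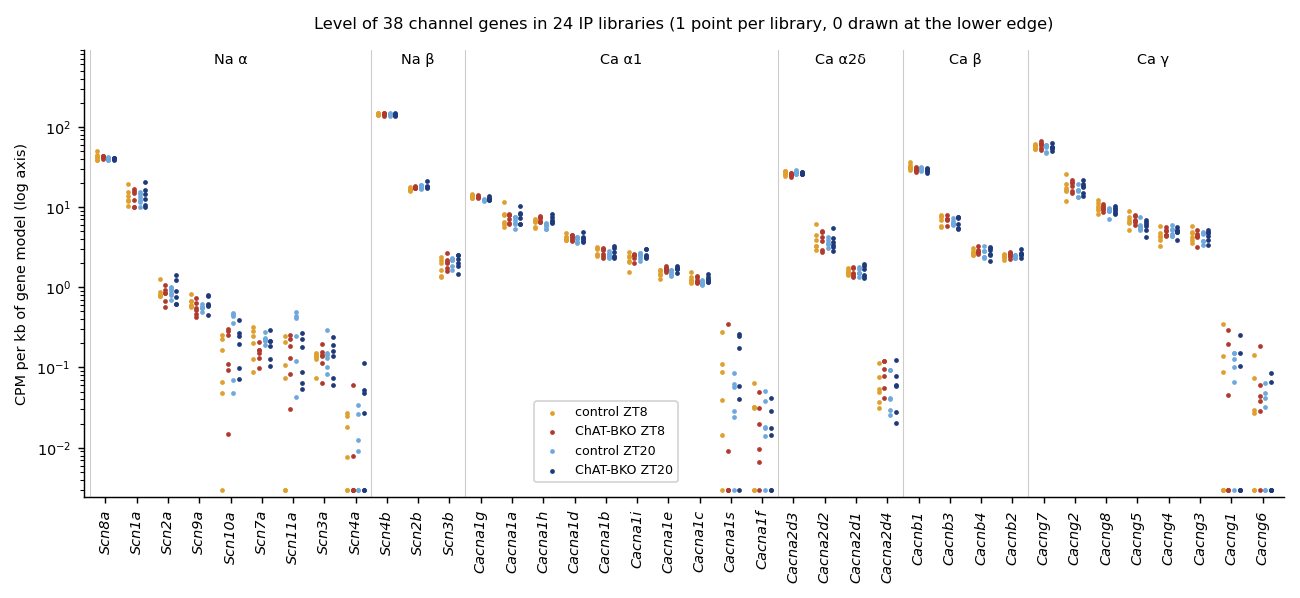
Level of 38 members in each of the 24 IP libraries, in CPM per kb of merged exons on a log axis, ordered by class and by mean level. Each point is 1 library, coloured by group, and libraries at 0 are drawn at the lower edge. *Scn4b* averaged 143 CPM per kb and *Scn4a*, the lowest, 0.0195 CPM per kb.

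Among the sodium α genes, *Scn8a*, the main pore of mature nodes of Ranvier, was the most abundant per length. Its mean over 24 libraries was 41.3 CPM per kb, ahead of *Scn1a*, another pore of the central nervous system, with 13.6 CPM per kb. *Scn8a* made up 72.7 ± 5.94% (SD, n = 6) of the per-length level of this class in controls at ZT8, 73.3 ± 4.53% in *ChAT-BKO* at ZT8, 72.4 ± 3.26% in controls at ZT20 and 71.2 ± 5.57% in *ChAT-BKO* at ZT20. Over all 24 libraries the share of *Scn8a* ran from 63.2 to 80.2% and that of *Scn1a* from 16.7 to 32.1%, so these ranges did not meet. In the Input the order was the reverse, with 40.4% for *Scn1a* and 34.7% for *Scn8a*, although this rests on 1 pooled library.

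The other sodium α genes were far lower. *Scn2a*, the pore of unmyelinated and immature axons, averaged 0.878 CPM per kb, and *Scn9a*, known from sensory and sympathetic neurons, averaged 0.601 CPM per kb. The sensory neuron pores *Scn10a* and *Scn11a*, the sodium sensor gene *Scn7a*, the embryonic *Scn3a* and the skeletal muscle *Scn4a* lay between 0.206 and 0.0195 CPM per kb. *Scn1a*, *Scn2a*, *Scn3a*, *Scn7a* and *Scn9a* lie in 1 region of mouse chromosome 2 (GENCODE vM21 on GRCm38, from 65457118, the start of *Scn3a*, to 66784914, the end of *Scn7a*). *Scn1a* was nevertheless far above the other 4 in every library. These α genes are alike in sequence, and RSEM divided reads that match several of them, so the low level of *Scn3a* beside *Scn2a* is uncertain.

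Among the sodium β genes, *Scn4b*, whose product is linked to resurgent sodium current in fast-firing neurons, averaged 143 CPM per kb and stood at percentile 98.2 of the 18900 tested genes with a known length. *Scn2b* averaged 17.6 and *Scn3b* 2.02 CPM per kb. *Scn4b* was also the steadiest member: its CPM ran from 692 to 749 in controls at ZT8, from 683 to 735 in *ChAT-BKO* at ZT8, from 685 to 735 in controls at ZT20 and from 670 to 738 in *ChAT-BKO* at ZT20. Its coefficient of variation within groups was 2.91%, against a median of 10.6% over the 10429 genes above 5 CPM. *Scn2b* and *Scn4b* are close neighbours on chromosome 9, spanning 45117782 to 45130070 and 45138395 to 45154152.

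Among the calcium α1 genes, *Cacna1g*, a low-voltage-activated (T-type) pore, led with a mean of 13.0 CPM per kb. The P/Q-type pore *Cacna1a*, which opens at the neuromuscular junction, followed with 7.34 CPM per kb and the T-type pore *Cacna1h* with 6.55 CPM per kb, and these last genes overlapped in their libraries. *Cacna1g* made up 34.6 ± 2.11% (SD, n = 6) of this class in controls at ZT8, *Cacna1a* 19.0 ± 3.26% and *Cacna1h* 15.9 ± 0.996%. In the Input, *Cacna1a* (20.6%) and *Cacna1g* (20.0%) were nearly level and *Cacna1h* took 8.96%. The L-type pores *Cacna1d* and *Cacna1c* averaged 4.10 and 1.23 CPM per kb, the N-type *Cacna1b* 2.69, the T-type *Cacna1i* 2.43 and the R-type *Cacna1e* 1.61. *Cacna1s*, the voltage sensor of skeletal muscle, and *Cacna1f*, a pore of the retina, were near the detection limit with 170 and 55 counts over 24 libraries.

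Each auxiliary class of the calcium channel was led by 1 gene. Of the α2δ genes, *Cacna2d3* averaged 26.3 CPM per kb and made up 77.8 to 85.9% of its class in every IP library, whereas it was 36.4% in the Input, below *Cacna2d2* with 44.0%. *Cacna2d2*, *Cacna2d1* (the main target of gabapentin) and the retinal *Cacna2d4* averaged 3.83, 1.56 and 0.0653 CPM per kb. Of the β genes, *Cacnb1* had group means from 28.8 to 31.9 CPM per kb and made up 67.8 to 76.2% of its class, against 29.1% in the Input, where *Cacnb3* was highest, ahead of *Cacnb4* with 29.6%. *Cacnb3*, *Cacnb4* and *Cacnb2* averaged 6.75, 2.75 and 2.49 CPM per kb, and the last of these overlapped in their libraries.

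Of the γ genes, *Cacng7*, which encodes an AMPA receptor auxiliary subunit, averaged 56.7 CPM per kb and *Cacng2*, which encodes stargazin, 17.4 CPM per kb. *Cacng7* held 52.2 to 62.3% of the class in the IP libraries and 63.3% in the Input. *Cacng8*, *Cacng5*, *Cacng4* and *Cacng3* averaged 9.51, 6.39, 4.79 and 4.37 CPM per kb. *Cacng1*, the γ subunit of muscle calcium channels, and its relative *Cacng6* had 36 and 28 counts over the 24 libraries. *Cacng7*, *Cacng8* and *Cacng6* are adjacent on chromosome 7 (3332955 to 3435667), and *Cacng1*, *Cacng4* and *Cacng5* on chromosome 11 (107703218 to 107915055). Each of these neighbourhoods thus held both a member near the detection limit and members detected in every library.

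**Figure D2:**
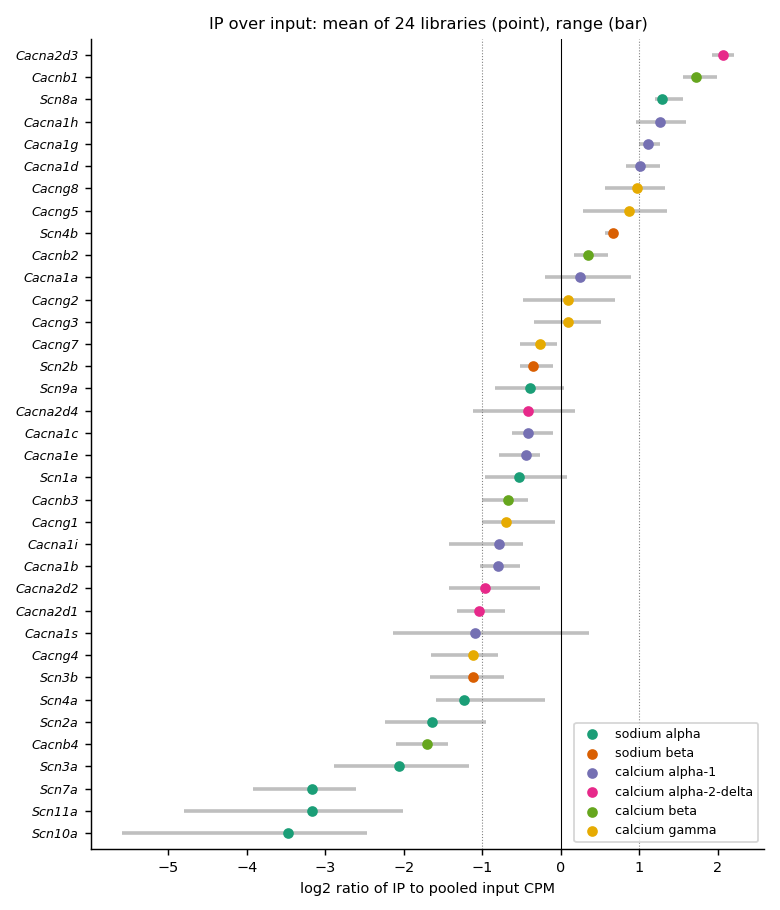
Log2 ratio of IP to Input CPM for 36 members with more than 3 counts in the Input, coloured by class. Points are means over 24 IP libraries, grey bars run from the lowest to the highest library, and dotted lines mark a ratio of 1 and -1. *Cacna2d3* was highest at 2.07 and *Scn10a* lowest at -3.48.

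The comparison with the Input asked which channel genes were richer in ribosome-bound RNA of Cre-expressing cells than in the whole cord. With 1 Input library there is no test, and a prior of 0.5 CPM was added to both sides. Of the members, 7 of 40 had a log2 ratio above 1, where 12.4% of all tested genes did, and 11 had a ratio under -1, where 17.8% of all tested genes did. Those above 1 included *Cacna2d3* (2.07), *Cacnb1* (1.73), *Scn8a* (1.29), *Cacna1h* (1.27), *Cacna1g* (1.11) and *Cacna1d* (1.01). All 24 IP libraries were above the Input for each of these. None of the γ genes was above 1, although *Cacng8* (0.97) and *Cacng5* (0.87) came close, also with all 24 IP libraries above the Input.

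The members furthest below the Input were *Scn10a* (-3.48), *Scn7a* (-3.17), *Scn11a* (-3.17), *Scn3a* (-2.06), *Cacnb4* (-1.71) and *Scn2a* (-1.64). *Scn4a*, *Scn3b*, *Cacng4*, *Cacna1s* and *Cacna2d1* lay between -1.23 and -1.04. Several of the best measured members lay near or below 0: *Cacna1a* was 0.25, *Cacng2* 0.10, *Cacng7* -0.27 and *Scn1a* -0.53. *Cacna1f* had 0 counts in the Input, which allows up to 0.406 CPM, and *Cacng6* had 1 count, so no ratio is given for either. Scaling by library totals in place of TMM moved the median ratio over all genes by -0.27, from -0.01 to -0.28. For the members another measure was taken, the median of the changes per gene, which was -0.45. With library totals 2 members were left above 1, *Cacna2d3* (1.62) and *Cacnb1* (1.28).

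Some of the members that were low in the IP are known from tissues that border the cord, and their counts moved with marker genes of those tissues. *Cacna1s* had 38 counts in replicate 4 of *ChAT-BKO* at ZT8 and 31 in replicate 2 of controls at ZT8. It had at most 29 in any other library and 0 in 7 of the 24. Its highest level was 2.31 CPM in *ChAT-BKO* at ZT8 and 1.80 CPM in controls at ZT8. At ZT20 the highest was 1.71 CPM in *ChAT-BKO* and 0.56 CPM in controls. The summed level of 15 skeletal muscle markers was 273 CPM in replicate 4 of *ChAT-BKO* at ZT8 and 211 CPM in replicate 2 of controls at ZT8. It ran from 61.3 to 211 CPM in controls at ZT8, from 60.6 to 273 in *ChAT-BKO* at ZT8, from 64.4 to 100.5 in controls at ZT20 and from 79.1 to 186 in *ChAT-BKO* at ZT20. Much of this sum came from *Pvalb*, which neurons express too. Without *Pvalb*, left out after its values were seen, the medians of the other 14 markers were 36.8, 9.13, 14.6 and 87.8 CPM in the same order. None of these 15 markers was at 0 in every library, and 0 of the 15 lay above the Input.

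Over 24 libraries, after the group means were removed on the log2(CPM + 0.5) scale, *Cacna1s* followed the muscle sum with r = 0.90 and rho = 0.75 (permutation within groups, 100000 draws, two-sided p = 1e-05, the smallest these draws can give, and p = 4.5e-04). Without the 2 libraries furthest from the median, r was 0.79. *Scn4a* gave r = 0.50 and rho = 0.35 (permutation p = 0.0238 and 0.0934), and r = 0.25 without the same libraries, so its relation rested on them.

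The sensory neuron pores did likewise with 5 markers of dorsal root ganglion neurons. The sum of these markers was 4.27 to 11.3 CPM in the IP libraries against 50.7 CPM in the Input, and *Mrgprd* among them was at 0 in 12 of the 24. Much of this sum came from *P2rx3*. Its medians were 5.00, 5.21, 5.49 and 3.95 CPM in controls at ZT8, *ChAT-BKO* at ZT8, controls at ZT20 and *ChAT-BKO* at ZT20. The medians of the sum were 6.59, 7.13, 10.3 and 6.02 CPM in the same order. *Scn10a* followed the sum with r = 0.84 and rho = 0.86 (permutation p = 3e-05 and 4e-05) and *Scn11a* with r = 0.78 and rho = 0.78 (permutation p = 1.2e-04 and 1.8e-04). Without the 2 furthest libraries r was 0.80 and 0.71. Of these 4 relations, adjusted by Benjamini-Hochberg over the 4, only the rank correlation of *Scn4a* exceeded 0.05. What part of these members' RNA came from such cells was not tested.

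**Figure D3:**
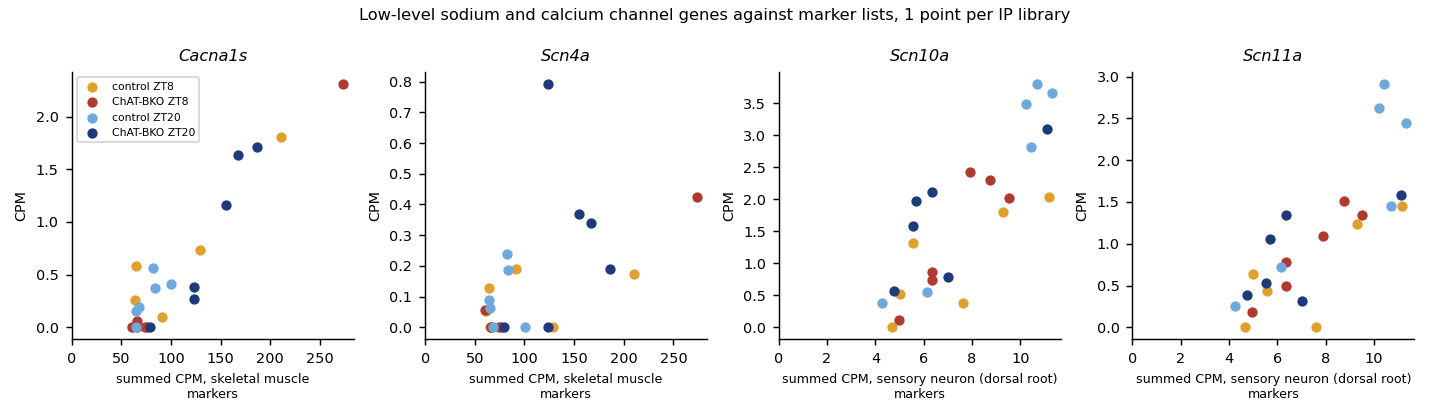
CPM of *Cacna1s* and *Scn4a* against the summed CPM of 15 skeletal muscle markers, and of *Scn10a* and *Scn11a* against that of 5 dorsal root ganglion markers, with 1 point per IP library coloured by group. The highest *Cacna1s* point, 2.31 CPM, is the library with the highest muscle sum, 273 CPM.

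Members differed widely in how much they varied between libraries of the same group. Among the 29 members above 5 CPM, the coefficient of variation within groups had a median of 11.4%, against 10.6% over all genes above 5 CPM. It was lowest for *Scn4b* (2.91%), *Cacna1g* (3.68%), *Cacna2d3* (4.42%) and *Scn2b* (4.86%). It was highest for *Scn2a* (25.1%), *Cacna2d2* (24.4%), *Scn1a* (22.8%) and *Cacna1a* (20.0%).

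Much of this spread moved with 1 property of each library, the slope of log2 CPM on log2 gene length across genes. The slope ran from 0.966 to 1.11 over the 24 libraries, and its group medians were 1.01 in controls at ZT8, 1.02 in *ChAT-BKO* at ZT8, 1.02 in controls at ZT20 and 1.04 in *ChAT-BKO* at ZT20. After group means were removed, *Cacna2d2* (r = 0.97, rho = 0.95), *Scn1a* (r = 0.95, rho = 0.95), *Cacna1a* (r = 0.94, rho = 0.90) and *Cacng2* (r = 0.89, rho = 0.87) rose with the slope. *Scn8a* (r = -0.71, rho = -0.76) went the other way, and *Scn4b* showed little relation (r = -0.11, rho = -0.09). The permutation p was 1e-05 for r of *Cacna2d2*, *Scn1a*, *Cacna1a* and *Cacng2*, 7.6e-04 for *Scn8a* and 0.639 for *Scn4b*. For rho it was at most 1e-04 for the first 5 of these and 0.694 for *Scn4b*.

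Of the 29 members tested in this way, 23 had an adjusted permutation p for r under 0.05, 20 of them with a positive r. Without the 2 libraries with the most extreme slopes, r was 0.95 for *Cacna2d2* and *Scn1a*, 0.90 for *Cacna1a*, 0.83 for *Cacng2* and -0.74 for *Scn8a*. The slope was itself computed over all genes with a length, long members included. Such relations were also found among genes in general, but a high positive r was less frequent there. It was above 0.7 for 14 of the 29 members and for 15.9% of genes above 5 CPM. Under -0.7 there were 2 members and 20.1% of those genes. Members were also longer, with a median of 8.34 kb of merged exons against 3.74 kb for tested genes. How far length alone gives the excess of positive r was not tested. *Scn8a*, with 15.8 kb of merged exons, and *Scn1a*, with 11.1 kb, stood on opposite sides although both are long. Sequencing depth and the slope had an r of -0.01 over the libraries. What gave the libraries their slopes was not tested.

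**Figure D4:**
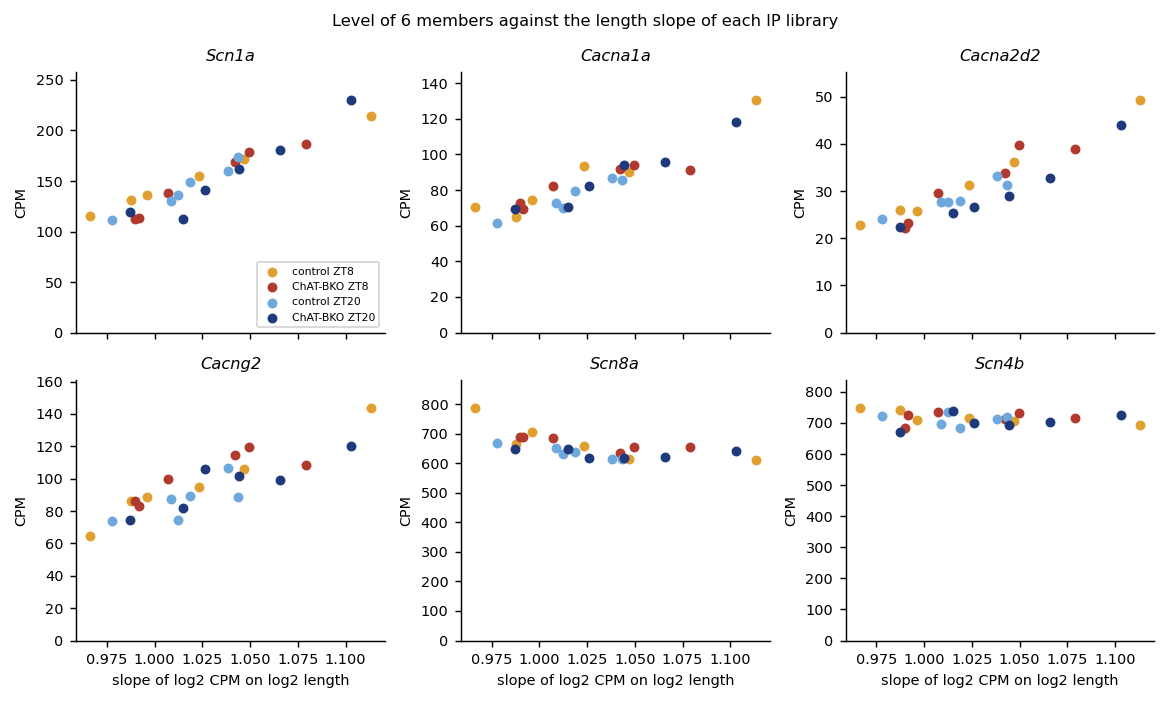
CPM of 6 members against the length slope of each of the 24 IP libraries, coloured by group, with all vertical axes starting at 0. *Scn1a*, *Cacna1a*, *Cacna2d2* and *Cacng2* rise with the slope (r of 0.95, 0.94, 0.97 and 0.89 after group means were removed), *Scn8a* falls with it (-0.71) and *Scn4b* shows little relation (-0.11).

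At ZT8, the comparison of *ChAT-BKO* with control mice asked whether loss of *Bmal1* altered these genes in the light period. edgeR's quasi-likelihood test called 0 of 40 members at an adjusted p under 0.05, where 0.184% of all tested genes were called, and DESeq2 and limma also called 0. At an unadjusted p under 0.05 there were 2 members, both higher in *ChAT-BKO*, where 4.83% of all genes passed. This was not stable. With the length slope as a covariate 4 higher and 2 lower members passed, where 1917 of 21738 genes did. Leaving out 1 library gave 0 to 2 higher and 0 to 1 lower, where 922 to 1290 of 21738 genes passed. No member had groups of 6 libraries that did not overlap, where 0.57% of all genes had. The 29 members above 5 CPM had log2 fold changes from -0.23 to 0.18, and for 28 of them the 95% interval stayed within 0.5 of 0.

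The 2 members that passed with all libraries and without the covariate were *Cacna1e* and *Cacna1h*. *Cacna1e* had a lowest, median and highest level of 32.2, 38.4 and 41.9 CPM in controls and 39.0, 42.9 and 46.2 CPM in *ChAT-BKO*. Its log2 fold change was 0.18 ± 0.07 (SE; 95% interval 0.02 to 0.33; adjusted p = 0.995). *Cacna1h* had 53.8, 63.9 and 69.8 CPM in controls and 63.0, 68.6 and 75.2 CPM in *ChAT-BKO*, a log2 fold change of 0.16 ± 0.07 (SE; 95% interval 0.01 to 0.31; adjusted p = 1). The groups overlapped for both genes, with the lowest control libraries below every *ChAT-BKO* library.

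Values at ZT8 are given also for a sodium pore and an α2δ gene that were high in the IP. *Scn8a* had 611, 661 and 787 CPM in controls and 635, 670 and 689 CPM in *ChAT-BKO*, a log2 fold change of -0.01 with a 95% interval from -0.13 to 0.11. *Cacna2d3* had 210, 232 and 245 CPM in controls and 208, 219 and 232 CPM in *ChAT-BKO*, a log2 fold change of -0.06 with a 95% interval from -0.17 to 0.05. The libraries of both genotypes overlapped for each gene.

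At ZT20, in the dark period, edgeR's quasi-likelihood test again called 0 of 40 members at an adjusted p under 0.05, where 0.23% of all genes were called, and DESeq2 and limma called 0. An unadjusted p under 0.05 was met by 5 members, all higher in *ChAT-BKO*, where 6.28% of all genes met it. This direction turned with the length slope as a covariate, when 1 higher and 3 lower members met it, where 2118 of 21738 genes did. The median log2 fold change of the 40 then went from 0.05 (26 higher, 14 lower) to -0.04 (16 higher, 24 lower). Of all genes, 48.3% were higher without the covariate and 45.4% with it. Groups overlapped for every member, while 0.506% of all genes had groups that did not. Log2 fold changes of the 29 members above 5 CPM ran from -0.05 to 0.27, with 28 intervals within 0.5 of 0.

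*Cacna1h* was again among them, with 51.5, 57.3 and 62.4 CPM in controls and 61.1, 66.2 and 79.9 CPM in *ChAT-BKO*. Only 1 control library, replicate 1, reached into the *ChAT-BKO* range. Its mean was 56.8 ± 4.35 against 68.3 ± 7.17 CPM (SD, n = 6), a log2 fold change of 0.27 ± 0.07 (SE; 95% interval 0.12 to 0.42; edgeR adjusted p = 0.228). Over all alternatives its adjusted p ran from 0.0595 with DESeq2 to 0.569, and its log2 fold change was 0.18 with the length slope as a covariate.

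*Cacna1e* had 35.3, 39.1 and 41.9 CPM in controls and 38.5, 43.5 and 46.1 CPM in *ChAT-BKO*, and its log2 fold change was 0.14 ± 0.06 (SE) with an adjusted p of 0.773. With the length slope as a covariate this was 0.07. *Cacna1c*, an L-type pore, had 22.7, 23.9 and 26.0 CPM in controls and 24.5, 26.7 and 31.4 CPM in *ChAT-BKO*, and its log2 fold change was 0.17 ± 0.07 (SE) with an adjusted p of 0.734. The median slope was 1.04 in *ChAT-BKO* and 1.02 in controls at ZT20, and *Cacna1c* followed the slope with r = 0.90 and rho = 0.86 (permutation p = 1e-05 for both). Its log2 fold change with the slope as a covariate was 0.08.

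The remaining members that met it were the muscle genes *Cacna1s* and *Scn4a*. *Cacna1s* had 0, 0.283 and 0.559 CPM in controls and 0, 0.773 and 1.71 CPM in *ChAT-BKO*, from 24 and 64 counts in all (log2 fold change 1.79 ± 0.59, SE; adjusted p = 0.511). *Scn4a* had 0, 0.0753 and 0.239 CPM in controls and 0, 0.264 and 0.792 CPM in *ChAT-BKO*, from 8 and 20 counts (log2 fold change 1.71 ± 0.76, SE; adjusted p = 0.764). For each gene, 3 of the 6 *ChAT-BKO* libraries lay above the highest control, and libraries at 0 were found in both groups. Beside them, the summed muscle markers were 64.4 to 100.5 CPM in controls and 79.1 to 186 CPM in *ChAT-BKO* at this time.

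**Figure D5:**
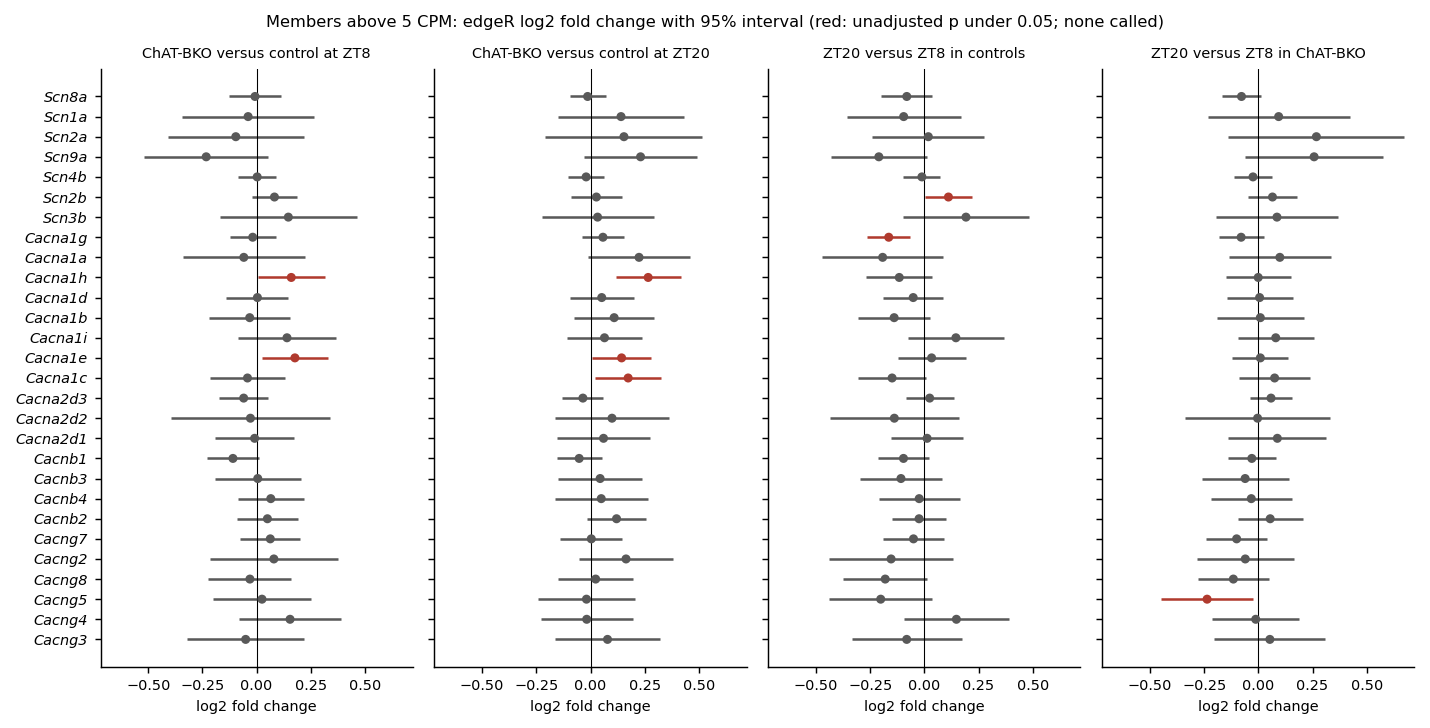
Log2 fold change (point) with its 95% interval (bar) from edgeR for 28 members above 5 CPM, in 4 comparisons. Red marks an unadjusted p under 0.05; no member passed after adjustment over all 21738 genes. *Cacna1h* lay at 0.16 at ZT8 and 0.27 at ZT20 in *ChAT-BKO* versus control mice.

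In control mice, ZT20 was compared with ZT8 to ask whether these genes differed between the dark and the light period. edgeR called 0 of 40 members at an adjusted p under 0.05, where 0.115% of all genes were called; limma called 0 and DESeq2 1, *Cacna1g*. An unadjusted p under 0.05 was met by 4 members, 3 of them higher at ZT20, where 8.25% of all genes met it. This split did not hold. It was 1 higher and 3 lower with edgeR's filterByExpr, where 1454 of 14078 genes met the limit. With the length slope as a covariate it was 4 higher and 9 lower, where 3069 of 21738 genes met it. Leaving out 1 library gave 0 to 4 higher and 1 to 6 lower, where 1504 to 2031 of 21738 genes met it. Of all 40 members, 14 had a positive and 26 a negative log2 fold change, where 50.9% of all genes had a positive one. Many members moved with the length slope, so these signs are not independent of each other. The T-type pore *Cacna1g* had 131, 141 and 146 CPM at ZT8 and 122, 123 and 127 CPM at ZT20. All 6 libraries at ZT20 were below all 6 at ZT8, a separation seen for 0.938% of all genes and no other member. The log2 fold change of *Cacna1g* was -0.16 ± 0.05 (SE; 95% interval -0.26 to -0.07; adjusted p = 0.280). DESeq2 gave -0.17 with an adjusted p of 0.00425, and over all alternatives the adjusted p ran up to 0.493. In *ChAT-BKO* the medians of *Cacna1g* were 136 CPM at ZT8 and 128 CPM at ZT20, and the groups overlapped. The edgeR log2 fold change there was -0.08 ± 0.05 (SE; 95% interval -0.18 to 0.02; adjusted p = 0.675). The difference between the genotypes was 0.09 (95% interval -0.03 to 0.21), so a change of the time effect was not shown.

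*Scn2b* had 73.6, 76.6 and 82.4 CPM at ZT8 and 78.5, 83.4 and 86.9 CPM at ZT20, and its log2 fold change was 0.11 ± 0.05 (SE) with an adjusted p of 0.592. The nociceptor pores were the others. *Scn10a* had 0, 0.921 and 2.03 CPM at ZT8 and 0.379, 3.15 and 3.80 CPM at ZT20 (log2 fold change 1.42 ± 0.64, SE; adjusted p = 0.568). *Scn11a* had 0, 0.540 and 1.45 CPM and then 0.253, 1.95 and 2.91 CPM (1.49 ± 0.65, SE; adjusted p = 0.561). For both, the same 4 of the 6 libraries at ZT20 were high, replicates 1 to 4, and the summed dorsal root ganglion markers were 10.2 to 11.3 CPM in these and 4.27 and 6.14 CPM in the others.

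Values are given also for *Scn8a*, *Scn9a*, *Cacna2d3* and *Cacng2*, which the study lists for a separate time course of younger mice. *Scn8a* had a median of 661 CPM at ZT8 and 634 CPM at ZT20 in controls, and its log2 fold change was -0.08 ± 0.06 (SE) with an adjusted p of 0.747. *Scn9a* went from a median of 8.09 to 7.17 CPM (-0.21 ± 0.11, SE; adjusted p = 0.632). *Cacna2d3* had medians of 232 and 235 CPM (0.02 ± 0.05, SE; adjusted p = 0.957) and *Cacng2* of 91.6 and 88.1 CPM (-0.15 ± 0.14, SE; adjusted p = 0.836). The libraries at ZT8 and ZT20 overlapped for each of these genes. Over the 29 members above 5 CPM the log2 fold changes ran from -0.21 to 0.19, and all 29 intervals stayed within 0.5 of 0.

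In *ChAT-BKO* mice, edgeR called 0 of 40 members between ZT20 and ZT8 at an adjusted p under 0.05, where 0.285% of all genes were called, and so did DESeq2 and limma. Only *Cacng5* had an unadjusted p under 0.05, which 9.42% of all genes had, and no member had groups that did not overlap, which 1.18% of all genes had. *Cacng5*, an AMPA receptor auxiliary subunit gene, had 23.1, 26.2 and 30.1 CPM at ZT8 and 16.2, 23.0 and 26.6 CPM at ZT20, a log2 fold change of -0.24 ± 0.10 (SE; 95% interval -0.45 to -0.03; adjusted p = 0.456). With the length slope as a covariate it was -0.31 with an adjusted p of 0.0323. In controls *Cacng5* had medians of 25.5 and 22.0 CPM, so both genotypes had the lower median at ZT20.

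*Scn8a* had medians of 670 and 631 CPM in *ChAT-BKO* (-0.08 ± 0.04, SE; adjusted p = 0.608) and *Scn9a* of 6.85 and 7.79 CPM (0.26 ± 0.15, SE; adjusted p = 0.651). *Cacna2d3* had medians of 219 and 230 CPM (0.06 ± 0.05, SE; adjusted p = 0.769) and *Cacng2* of 104 and 100.5 CPM (-0.06 ± 0.11, SE; adjusted p = 0.932). For these 4 genes too the groups overlapped. Of the 29 members above 5 CPM, 27 had an interval within 0.5 of 0. *Cacna1s* was the exception to the count of 0 called members when replicate 4 of *ChAT-BKO* at ZT8 was left out: its log2 fold change was then 5.14 with an adjusted p of 0.0184, with 1 count left among the 5 libraries at ZT8, so that this fitted value depends on the prior count.

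The difference of the *ChAT-BKO* effect between ZT20 and ZT8 was tested as an interaction. No gene was called by edgeR (0% of all tested genes, 0 of 40 members), nor by DESeq2 or limma. An unadjusted p under 0.05 was met by 2 members, where 3.9% of all genes met it. *Scn9a* differed by 0.47 ± 0.18 (SE; 95% interval 0.10 to 0.85; adjusted p = 1), from -0.23 at ZT8 to 0.23 at ZT20. *Cacna1c* differed by 0.23 ± 0.11 (SE; 95% interval 0.01 to 0.45; adjusted p = 1), from -0.04 at ZT8 to 0.17 at ZT20. Only 22 of the 29 members above 5 CPM had an interval of the difference within 0.5 of 0, so this comparison was less precise than the others.

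The genes that anchor, traffic or modulate these channels were read in the same fits: 35 partners such as ankyrins, intracellular FGFs, calmodulins, RGK proteins, STAC proteins and RIM proteins. edgeR called 0 of the 35 in each of the 5 comparisons, where it called at most 0.285% of all genes. At an unadjusted p under 0.05 there were 0 partners at ZT8 and 2 at ZT20 with *ChAT-BKO* set against control mice. Between the times there were 2 in controls and 5 in *ChAT-BKO*, and for the difference 0. Of all tested genes 4.83, 6.28, 8.25, 9.42 and 3.9% met this limit, in the same order. The smallest adjusted p was 0.146 for *Tspoap1*, whose product links RIM proteins to calcium channels, with a log2 fold change of 0.30 ± 0.08 (SE) between ZT20 and ZT8 in *ChAT-BKO*. In the same comparison *Rem2* and *Gem*, both RGK inhibitors of calcium channels, had log2 fold changes of -0.32 (adjusted p = 0.255) and 0.23 (adjusted p = 0.340). *Stac* had 0.23 in *ChAT-BKO* (adjusted p = 0.468) and 0.22 in controls (adjusted p = 0.581), and *Rrad*, another RGK gene, 0.57 in *ChAT-BKO* (adjusted p = 0.491). *Rem1*, at 0.0551 CPM, had -2.16 in controls (adjusted p = 0.603). At ZT20 *Calm2*, which encodes calmodulin, had -0.12 in *ChAT-BKO* versus control mice (adjusted p = 0.768).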

How the data were processed

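RNA bound to HA-tagged ribosomes was sequenced from 24 spinal cords, 6 per group, with 1 pooled Input. The authors aligned stranded 150-base reads to mm10 with STAR 2.7.5, per the labels, and estimated gene counts with RSEM on an Ensembl annotation; these expected counts, not normalized, are what they deposited, and the submitters' notes also name DESeq2 1.32.0. Here they were rounded. Genes with at least 10 counts over the 24 IP libraries were tested with edgeR 4.0.16 (R 4.3.3; TMM, quasi-likelihood, Benjamini-Hochberg over all 21738 genes), within the groups of each comparison. The scripts were tested on simulated data. The members and lists were chosen with earlier results of these data known. Fold changes were printed for members with an unadjusted p under 0.05 and for *Scn8a*, *Scn9a*, *Cacna2d3* and *Cacng2* between times. *Scn8a* and *Cacna2d3* at ZT8 and *Scn9a* at both times were added after their values were seen. So were *Cacna1g* between times in *ChAT-BKO* and its difference between the genotypes. Every replicate pair of a group differed beyond sampling noise (chi-square per degree of freedom 1.91 to 30.4), and each library was 1 spinal cord. Same-numbered libraries were not paired by any label. Lengths and positions came from GENCODE vM21 and promoters from RefSeq, both on GRCm38, the assembly behind mm10. Depth was 4.04 to 31.7 M (mega) counts per IP library, so that 0 counts allow up to 3 counts of the total; such limits cover counting error only. Alternatives were DESeq2 1.42.0, its size factors in edgeR, limma 3.58.1 (voom), other filters, all 24 libraries in 1 fit, a replicate block, the length slope as a covariate and leaving out each library, and for the Input ratio library totals, a prior of 0.1 CPM and control libraries alone. Values of some genes are counted but not reported here.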

Additional observations from a re-analysis of the deposited data

Results flagged for a closer look

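Among 160 groups of 6 libraries (40 members in 4 groups), 9 held a library far from its group by Dixon's test, or 5.63%, where chance alone gives about 5%. Replicate 4 of *ChAT-BKO* at ZT8 was the highest of its group for *Cacna1s* (2.31 CPM, others 0 to 0.0598), *Scn4a* (0.425 CPM, others 0 to 0.0561) and *Cacng6* (0.364 CPM, others 0 to 0.120), and its summed skeletal muscle markers were 273 CPM. In controls at ZT8, *Scn2a* was 16.0 CPM in replicate 5, against 9.83 to 11.1 in the others, and that library had the highest length slope of its group, 1.11. *Scn3a* was 0.930 CPM in replicate 2 of controls at ZT8, below the 1.61 to 1.90 of the others. In controls at ZT20, *Scn3a* was 3.61 CPM in replicate 1 (others 1.05 to 1.88), *Cacng5* 28.7 CPM in replicate 6 (others 19.7 to 22.9) and *Cacng8* 16.8 CPM in replicate 3 (others 20.8 to 22.7). *Scn2b* was 97.2 CPM in replicate 2 of *ChAT-BKO* at ZT20, against 81.0 to 85.2 in the others.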

How the results depend on the processing

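Of the alternative values for counts of called members and Input ratios, 112 stayed with the reported value and 5 did not. The exceptions were 1 member between ZT20 and ZT8 in controls with DESeq2 and 1 with the length slope as a covariate (*Cacna1g* each time), 1 in *ChAT-BKO* with the slope (*Cacng5*), and 2 members above an Input ratio of 1 with library totals. Leaving out 1 library gave 0 to 1 called members between the times in *ChAT-BKO*, the 1 being *Cacna1s* without replicate 4 of *ChAT-BKO* at ZT8. Leave-one-out values of *Cacna2d3* between the times in controls ran from -0.0030 to 0.044 and of *Cacng2* in *ChAT-BKO* from -0.13 to 0.0036, so that each turned sign once. With a replicate block 0 members were called in each comparison, and the calls over all genes were 69, 61, 86, 47 and 0 against 40, 50, 25, 62 and 0. With the block, 2 members were higher and 5 lower at an unadjusted p under 0.05 between the times in controls, in place of 3 and 1. Over all 21738 genes, 1906 passed this limit with the block and 1793 without it. Same-numbered libraries deviated together by r over 0.1 in 11 of 24 pairs (r from -0.37 to 0.59), and in 6 of the 24 a library correlated best with its own number, so the numbers were not taken as pairs. The slope as a covariate raised the calls over all genes to 144, 192, 344 and 449 in the first 4 comparisons and 1 in the last, and DESeq2 called 70, 91, 127, 225 and 0. Depth limits the members under 1 CPM, most of all *Cacna1f*, *Cacna1s*, *Scn4a*, *Cacng1* and *Cacng6*.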
